A study of Drosophila melanogaster with 3 samples.

Results

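The genes described here are the copies of the 5 replication-dependent histone genes of *Drosophila melanogaster*, which lie in tandem in 1 cluster on chromosome arm 2L. They were taken as every entry of the expression table whose symbol begins with His1, His2A, His2B, His3 or His4 followed by a colon, which gave 111 of 15185 entries. These were 23 copies of *His1*, 20 of *His2A*, 23 of *His2B*, 23 of *His3* and 22 of *His4*. RNA-seq of whole male larvae of the 3rd instar was carried out on 1 library for each of 3 genotypes. *mxcmbn1* larvae carry a recessive lethal allele of *mxc* (*multi sex combs*) and develop a tumour of the lymph gland, the haematopoietic organ of the larva, with excess blood cells and reduced imaginal discs. The allele came from a stock that also carried *w1*, after removal of a duplication holding a wild-type copy of *mxc*. *mxcG43* larvae carry a hypomorphic allele without a tumour, from a separate stock, and the wild type was Canton S, so the genetic backgrounds of the 3 libraries differ. The number of larvae behind each library is not given in the sources used here.

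Histone proteins package DNA. Pairs of His2A, His2B, His3 and His4 form the core of the nucleosome, and the linker histone His1 binds where the DNA enters and leaves it. The genes of the cluster are transcribed mainly in S phase, at a nuclear structure called the histone locus body, and their mRNAs normally end in a stem-loop in place of a poly(A) tail. The protein encoded by *mxc* is the scaffold of that body and the fly counterpart of human NPAT. Replacement histones such as His2Av and His3.3 are encoded elsewhere in the genome, are made outside S phase as well, and have polyadenylated mRNAs.

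Levels are in FPKM, fragments per length of exon and per number of fragments mapped, so that gene length and library size are already divided out. The libraries were equivalent to 15251000 reads in *mxcmbn1*, 10883000 reads in *mxcG43* and 11234000 reads in wild type. These numbers were recovered from the steps between FPKM values of single-exon genes. Of 512 such genes, 172, 80 and 66 were low enough to be used in *mxcmbn1*, *mxcG43* and wild type. The numbers depend on an assumed fragment length and are below the sequenced reads that the paper gives for *mxcmbn1* and wild type. With 1 library for each genotype no difference has a replicate check, and no test between genotypes was run. The 95% intervals given beside ratios cover counting error of the estimated reads alone. Of the markers of the labelled material, the male-specific RNA *roX1* had 195, 201 and 247 FPKM in *mxcmbn1*, *mxcG43* and wild type. The other listed genes of male dosage compensation were *roX2*, at 35.4, 46.7 and 37.1 FPKM, and *msl-2*, at 11.5, 5.77 and 5.09 FPKM. The mutated gene *mxc* had 3.56 FPKM in *mxcmbn1*, 1.94 FPKM in *mxcG43* and 1.96 FPKM in wild type. Levels of cell type markers differed as well. The summed level of 10 haemocyte markers was 1779 FPKM in *mxcmbn1*, 390 FPKM in *mxcG43* and 470 FPKM in wild type, and that of 17 testis markers was 31.3, 991 and 1319 FPKM. In whole larvae, fewer cells of a type and less RNA per cell cannot be told apart.

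The copies spanned positions 21417078 to 21541620 of 2L in the BDGP5 build. They fell into 23 repeat units, numbered here by position, of which 19 held all 5 genes. The start of 1 unit lay a median of 5045 bases from the start of the next. The steps that began at units 19 to 21 were shorter, at 4843 bases, that of unit 1 was 4902 bases, and a step of 14041 bases separated units 5 and 6. The other steps were 5043 to 5151 bases. Each copy was a single exon by the BDGP6 annotation, with *His1*, *His2A* and *His3* on the plus strand and *His2B* and *His4* on the minus strand. None of the 111 entries was joined to or overlapped another entry of the table. All were above 0 in each library. The copies of a type are nearly identical, so the quantification divided reads among them, and the sum over a type is the main measure below. Values of single copies are estimates that depend on each other.

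Summed over all copies, the measured level of histone mRNA was highest in the tumour-bearing larvae. The paper calls the libraries mRNA libraries, but whether RNA was selected by its poly(A) tail is not given. The part of all histone mRNA that was measured, and whether it differed between genotypes, is therefore not known. The total was 416 FPKM in *mxcmbn1*, 202 FPKM in *mxcG43* and 157 FPKM in wild type, from an estimated 2355, 813 and 639 reads. The *mxcmbn1* total was 2.65 times that of wild type (95% interval 2.42 to 2.89) and 2.06 times that of *mxcG43* (1.90 to 2.23). The *mxcG43* total was 1.28 times that of wild type (1.16 to 1.43). With the median over all 111 copies in place of the sum, *mxcmbn1* over *mxcG43* became 1.24 and *mxcG43* over wild type 2.45, on a median wild-type copy of 0.199 FPKM, less than 1 read. These totals were made almost entirely of *His2A* and *His2B*, which held 93.0% of the sum in *mxcmbn1*, 86.9% in *mxcG43* and 94.4% in wild type. The ratios of the 5 types differed by more than their counting intervals for some pairs of types, and they are taken in turn below by their place in the nucleosome.

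**Figure D1:**
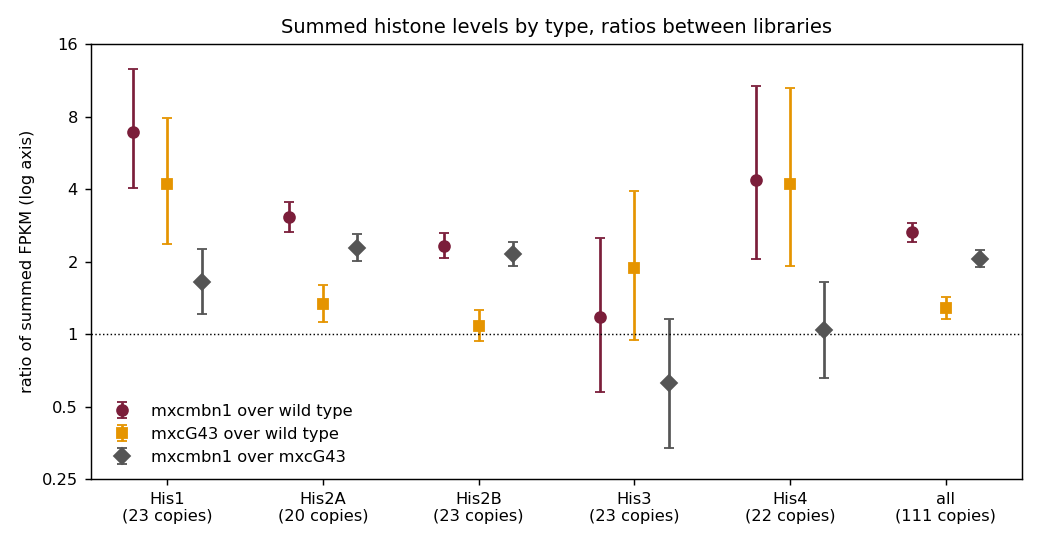
Ratio of summed FPKM for each histone type and for all 111 copies, on a log axis, for *mxcmbn1* over wild type (circles), *mxcG43* over wild type (squares) and *mxcmbn1* over *mxcG43* (diamonds). Bars are 95% intervals for counting error only. *His1* and *His4* lie above 1 in both mutants, *His2A* and *His2B* stand near 3.06 and 2.33 in *mxcmbn1* but near 1.34 and 1.09 in *mxcG43*, and the intervals of *His3* include 1.

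The linker histone *His1* had the highest *mxcmbn1* to wild-type ratio of the 5 types, although its interval overlapped that of *His4*. Its 23 copies summed to 13.6 FPKM in *mxcmbn1*, 8.28 FPKM in *mxcG43* and 1.98 FPKM in wild type, from 145, 63 and 15 estimated reads. *mxcmbn1* stood 6.91 times above wild type (95% interval 4.05 to 12.7) and 1.65 times above *mxcG43* (1.22 to 2.25), and *mxcG43* stood 4.19 times above wild type (2.36 to 7.92). Both mutants were therefore above wild type by more than counting error.

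Single *His1* copies lay between 0.524 and 0.648 FPKM in *mxcmbn1* (median 0.597), between 0.167 and 0.490 FPKM in *mxcG43* (median 0.357), and between 0.0339 and 0.121 FPKM in wild type (median 0.0943). The 3 ranges did not overlap. One read on a *His1* copy was worth 0.0940, 0.132 and 0.128 FPKM in *mxcmbn1*, *mxcG43* and wild type, so that every wild-type copy held less than 1 read and no ratio is given for a single copy. The copy with the highest level was *His1:CG31617* in unit 2, with 0.648 FPKM in *mxcmbn1*, 0.309 FPKM in *mxcG43* and 0.121 FPKM in wild type. The copies at the ends of the order by *mxcmbn1* to wild-type ratio were *His1:CG33807*, with 0.524, 0.428 and 0.0339 FPKM in the same order of genotypes, and *His1:CG33816*, with 0.530, 0.347 and 0.108 FPKM. Their *mxcmbn1* levels were nearly equal, and the order came from wild-type values of a fraction of a read.

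*His2A* and *His2B*, whose products pair as a dimer on the outside of the nucleosome core, were the types with most reads. *His2A* summed to 173 FPKM in *mxcmbn1*, 75.6 FPKM in *mxcG43* and 56.5 FPKM in wild type, from 971, 303 and 234 estimated reads. The *mxcmbn1* sum was 3.06 times that of wild type (2.65 to 3.54) and 2.28 times that of *mxcG43* (2.01 to 2.61). The *mxcG43* sum was 1.34 times that of wild type (1.12 to 1.59). All 20 *His2A* copies were higher in *mxcmbn1* than in either other library, with no overlap, from 6.57 to 9.52 FPKM in *mxcmbn1* (median 8.87) against 2.34 to 4.34 FPKM in *mxcG43* (median 3.97) and 1.78 to 3.16 FPKM in wild type (median 2.96). The *mxcG43* and wild-type ranges overlapped, although each copy was higher in *mxcG43*.

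The *His2A* copy with the highest level was *His2A:CG33823* in unit 9, with 9.52 FPKM in *mxcmbn1*, 4.34 FPKM in *mxcG43* and 3.08 FPKM in wild type. Its *mxcmbn1* level was 3.09 times the wild-type level. The ratio to wild type was lowest for *His2A:CG33835*, at 2.71 times (8.51 FPKM in *mxcmbn1*, 3.75 FPKM in *mxcG43*, 3.14 FPKM in wild type). It was highest for *His2A:CG33853*, at 3.74 times (6.76, 2.49 and 1.81 FPKM). Counting intervals on these 3 ratios, 1.67 to 6.18, 1.44 to 5.45 and 1.65 to 9.94 in that order, overlapped widely, so the copies of *His2A* could not be told apart by their ratio at this depth.

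*His2B* summed to 214 FPKM in *mxcmbn1*, 99.7 FPKM in *mxcG43* and 91.8 FPKM in wild type, from 1166, 387 and 367 estimated reads. *mxcmbn1* was 2.33 times wild type (2.07 to 2.63) and 2.15 times *mxcG43* (1.91 to 2.42). The *mxcG43* sum was 1.09 times wild type, and its interval of 0.939 to 1.26 included 1. The difference between *mxcmbn1* and each other library was thus beyond counting error, and that between *mxcG43* and wild type was not detectable at this depth. Copies ran from 6.76 to 36.8 FPKM in *mxcmbn1* (median 7.02), from 3.08 to 13.7 FPKM in *mxcG43* (median 3.42) and from 3.05 to 11.8 FPKM in wild type (median 3.40). Every copy was higher in *mxcmbn1* than in the other libraries, while 15 copies were higher and 8 lower in *mxcG43* than in wild type.

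The 3 *His2B* copies of units 1 to 3 stood apart from the other 20 in every library. *His2B:CG17949*, in unit 2 at 21423125 to 21423745 of 2L, had 36.8 FPKM in *mxcmbn1*, 13.7 FPKM in *mxcG43* and 11.8 FPKM in wild type, from 236, 62.9 and 55.8 estimated reads. Its *mxcmbn1* level was 3.12 times the wild-type level (2.32 to 4.25), the highest ratio among the *His2B* copies, and its *mxcG43* level was 1.16 times (0.799 to 1.70). *His2B:CG33910* of unit 1 had 19.4, 9.49 and 7.29 FPKM and *His2B:CG33908* of unit 3 had 18.1, 7.17 and 6.22 FPKM in *mxcmbn1*, *mxcG43* and wild type. These 3 entries are also the only *His2B* entries with a width other than 555 bases, at 585, 621 and 415 bases in units 1, 2 and 3, and whether the annotated width moves the share of reads they were given was not tested. They made up 34.7% of the *His2B* sum in *mxcmbn1*, 30.5% in *mxcG43* and 27.6% in wild type. Their summed level was 2.93 times wild type in *mxcmbn1* and 1.20 times in *mxcG43*, and that of the other 20 copies was 2.10 and 1.04 times. The copy with the lowest ratio of the type was *His2B:CG33906* in unit 4, with 6.90 FPKM in *mxcmbn1*, 3.50 FPKM in *mxcG43* and 3.56 FPKM in wild type, or 1.94 times wild type in *mxcmbn1* (1.02 to 3.88).

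*His3* and *His4*, which together form the tetramer at the centre of the nucleosome, had far fewer reads and differed from each other. *His3* summed to 5.37 FPKM in *mxcmbn1*, 8.57 FPKM in *mxcG43* and 4.54 FPKM in wild type, from 22, 25 and 14 estimated reads. It was the type for which *mxcmbn1* did not have the highest sum. The *mxcmbn1* sum was 1.18 times wild type (0.578 to 2.50) and 0.627 times *mxcG43* (0.337 to 1.16), and the *mxcG43* sum was 1.89 times wild type (0.943 to 3.92). All these intervals include 1, and the first allows any value between a decrease and a ratio as large as that of *His2B*. Copies had 0.159 to 0.332 FPKM in *mxcmbn1* (median 0.227), 0.259 to 0.495 FPKM in *mxcG43* (median 0.383) and 0.138 to 0.272 FPKM in wild type (median 0.200), with overlap between all libraries. One read was worth 0.245, 0.343 and 0.333 FPKM, and 14, 6 and all 23 copies lay under 1 read.

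Among *His3* copies, the highest level was that of *His3:CG33851*, with 0.251 FPKM in *mxcmbn1*, 0.495 FPKM in *mxcG43* and 0.200 FPKM in wild type. *His3:CG33812* and *His3:CG33818* were at the ends of the order by *mxcmbn1* to wild-type ratio, with 0.304, 0.418 and 0.139 FPKM for the first and 0.159, 0.286 and 0.234 FPKM for the second. In these 3 copies, as in all 23, *mxcG43* had the highest of the 3 values.

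*His4* summed to 9.99 FPKM in *mxcmbn1*, 9.63 FPKM in *mxcG43* and 2.28 FPKM in wild type, from 51, 35 and 8 estimated reads. Both mutants were above wild type, *mxcmbn1* by 4.38 times (2.06 to 10.7) and *mxcG43* by 4.22 times (1.92 to 10.5). They did not differ from each other beyond counting error, with a ratio of 1.04 for *mxcmbn1* over *mxcG43* (0.661 to 1.64) that fell below 1 after rescaling by the median ratio of all genes (0.946) or with the median over copies (0.927). *His4* copies had 0.238 to 1.07 FPKM in *mxcmbn1* (median 0.453), 0.264 to 0.668 FPKM in *mxcG43* (median 0.488) and 0.0293 to 0.151 FPKM in wild type (median 0.0932). Neither mutant range overlapped the wild-type range, in which every copy lay under the 0.273 FPKM that 1 read was worth.

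The highest *His4* level was at *His4:CG31611* of unit 2, with 1.07 FPKM in *mxcmbn1*, 0.599 FPKM in *mxcG43* and 0.0914 FPKM in wild type. *His4:CG33909* of unit 1 followed, with 0.981, 0.668 and 0.135 FPKM. These are the longest *His4* entries, at 576 and 574 bases against 524 to 530 bases in the others. *His4:CG33879* had the lowest ratio of *mxcmbn1* to wild type, from 0.238, 0.388 and 0.0908 FPKM in *mxcmbn1*, *mxcG43* and wild type.

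**Figure D2:**
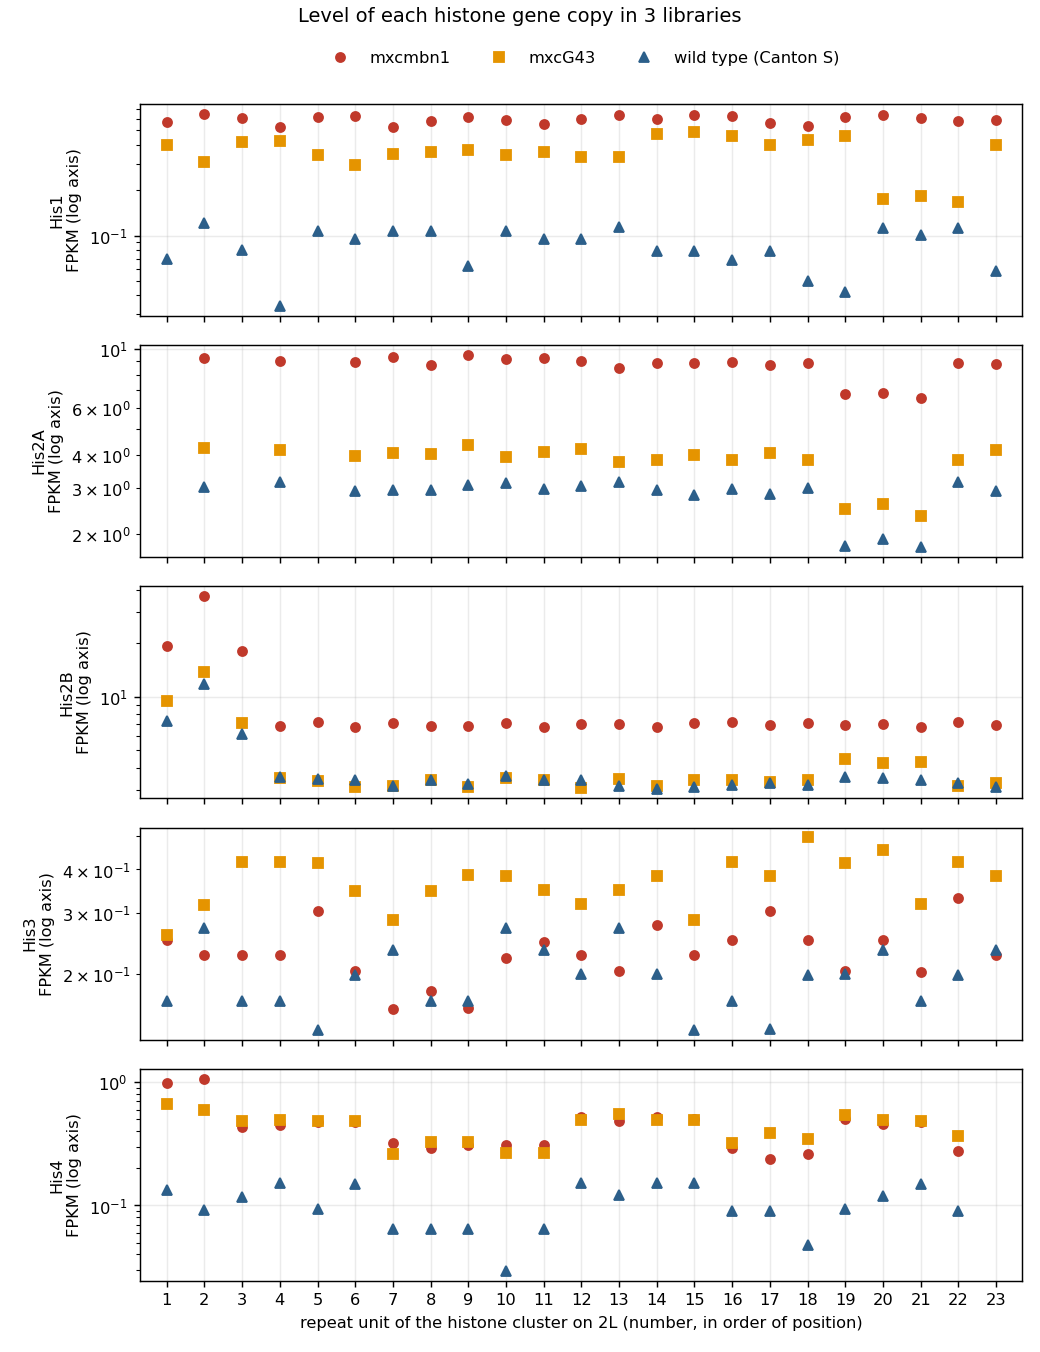
FPKM of each copy on a log axis, against the number of its repeat unit in the cluster, with 1 panel for each histone type and *mxcmbn1* as circles, *mxcG43* as squares and wild type as triangles. *His2B* is highest in units 1 to 3 in all libraries, *His2A* is lowest in units 19 to 21, and *His1* is low in units 20 to 22 in *mxcG43* only among the 3 libraries.

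Counted copy by copy, 105 of 111 were higher by any amount in *mxcmbn1* than in wild type, and the 6 exceptions were *His3* copies. Of all 15185 entries, 6597 were higher in *mxcmbn1*. The 15185 include entries at 0 FPKM, 2168 in *mxcmbn1* and 1920 in wild type. In *mxcG43* relative to wild type 103 copies were higher, with the 8 exceptions in *His2B*, against 6532 of all entries. In *mxcmbn1* relative to *mxcG43* 74 copies were higher and 37 lower, namely all 23 *His3* copies and 14 *His4* copies, against 6615 of all entries higher. Since reads were divided among copies, these counts follow the type sums and do not add 111 separate observations.

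A copy was then called when its FPKM differed by more than 2 times and was at least 1 in the higher library. Only 44 copies reached that level in *mxcmbn1* or wild type, and 38 of them were called higher in *mxcmbn1*, where 15.0% of all 11360 entries tested were called higher. They were all 20 *His2A* copies, 17 of 23 *His2B* copies and *His4:CG31611*, and none was called lower, against 23.1% of all entries. *His4:CG31611* entered only through its *mxcmbn1* level of 1.07 FPKM, and its wild-type level of 0.0914 FPKM is a fraction of a read, so its call carries no weight. Between *mxcG43* and wild type none of 43 copies was called in either direction, against 5.60% of entries called higher and 5.96% called lower. Between *mxcmbn1* and *mxcG43* 38 of 44 copies were called higher, namely 20 of *His2A* and 18 of *His2B*, against 14.1% of entries, and none lower, against 23.4%. After rescaling by the median ratio of all genes, which divides this ratio by 1.10, the 38 became 21. *His1* and *His3* copies and nearly all *His4* copies were too low to enter these counts. Without the minimum, 84 of 111 copies were more than 2 times higher in *mxcmbn1* than in wild type (15.6% of all entries) and 53 in *mxcG43* (7.91% of all entries). In *mxcmbn1* relative to *mxcG43* they were 43 (14.3%), and 2 *His3* copies were more than 2 times lower (23.9%). The copies added in this way to the comparisons with wild type rested on less than 1 wild-type read each.

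The position of a copy in the cluster went with its level in some types. The groups of units below were picked after the values had been seen and are descriptions. The *His2A* copies of units 19 to 21, *His2A:CG33853*, *His2A:CG33856* and *His2A:CG33859*, were the 3 lowest *His2A* copies in each library. Their medians were 6.76 FPKM in *mxcmbn1*, 2.49 FPKM in *mxcG43* and 1.81 FPKM in wild type, or 0.758, 0.619 and 0.607 times the medians of the other 17 copies, with no overlap. These are the units with the shorter step of 4843 bases. The *His2B* copies of the same units were not low. They had 4.24 to 4.50 FPKM in *mxcG43*, above the other copies outside units 1 to 3, and their medians were 0.989 and 1.04 times those of the other 20 copies in *mxcmbn1* and wild type.

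In *His1*, the copies of units 20 to 22, *His1:CG33855*, *His1:CG33858* and *His1:CG33861*, had 0.167 to 0.184 FPKM in *mxcG43*, against 0.296 to 0.490 FPKM in the other 20 copies of that library. They did not stand apart in *mxcmbn1* (0.582 to 0.629 FPKM against 0.524 to 0.648 FPKM) or in wild type (0.101 to 0.112 FPKM against 0.0339 to 0.121 FPKM). Because 1 read in *mxcG43* was worth 0.132 FPKM, each of these *mxcG43* values amounts to between 1 and 2 reads. In *His4*, the 9 copies of units 7 to 11, 16 to 18 and 22 were the lowest 9 in each library. They had 0.238 to 0.324 FPKM in *mxcmbn1*, 0.264 to 0.388 FPKM in *mxcG43* and 0.0293 to 0.0908 FPKM in wild type, and the other 13 started at 0.436, 0.484 and 0.0914 FPKM in the same order of genotypes. All 22 wild-type copies held less than 1 read each, of 8 estimated reads in all, so the wild-type order carries no weight. Since reads were divided among copies, the shared order is no separate evidence of an effect of position. *His3* copies showed none of these groupings.

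The balance between types also differed between genotypes. The summed level of *His3* was 0.537 times that of *His4* in *mxcmbn1*, 0.889 times in *mxcG43* and 1.99 times in wild type, a comparison that rests on 8 to 51 estimated reads of each type. *His1* was 0.0790 times *His2A* in *mxcmbn1*, 0.109 times in *mxcG43* and 0.0350 times in wild type. *His2A* and *His2B* kept closer to each other, with *His2A* at 0.806 times *His2B* in *mxcmbn1*, 0.758 times in *mxcG43* and 0.615 times in wild type. *His1*, *His3* and *His4* together reached 29.0 FPKM in *mxcmbn1*, 26.5 FPKM in *mxcG43* and 8.80 FPKM in wild type. The excess of *mxcmbn1* over *mxcG43* in the histone total thus lay almost wholly in *His2A* and *His2B*. In equal nucleosomes the 4 core histones are used in equal amounts, whereas in all 3 libraries the summed FPKM of *His2A* and *His2B* were several times those of *His3* and *His4*. How reads that fit many copies were kept by the aligner could bear on levels between types. Whether RNA was selected by its poly(A) tail could bear on levels between types and between genotypes. The part of neither was tested.

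Set among all genes, single copies were lowly to moderately expressed, each holding only its share of the reads of its type. The median of all entries was 4.88 FPKM in *mxcmbn1*, 6.52 FPKM in *mxcG43* and 6.76 FPKM in wild type, so this cut-off differed between libraries. The copies above the median of all 15185 entries were 43 in *mxcmbn1*, namely every copy of *His2A* and *His2B*, 3 in *mxcG43* and 2 in wild type, all of them *His2B* copies in those 2 libraries. The median copy stood at percentile 30.9 in *mxcmbn1*, 19.7 in *mxcG43* and 16.8 in wild type.

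The replacement histone genes *His2Av*, *His3.3A*, *His3.3B* and *His4r*, which lie outside the cluster and give polyadenylated mRNAs, differed less between *mxcmbn1* and wild type than the cluster sums of *His1*, *His2A*, *His2B* and *His4*. Between *mxcmbn1* and *mxcG43* this did not hold for *His4*, as *His4r* stood at 1.60 times and the cluster *His4* sum at 1.04 times. *His2Av*, the only fly variant of His2A, had 225 FPKM in *mxcmbn1*, 146 FPKM in *mxcG43* and 193 FPKM in wild type, 1.17 and 0.757 times wild type in the mutants. *His3.3A* had 130, 94.5 and 93.6 FPKM and *His3.3B* had 308, 256 and 271 FPKM in the same order. Both genes encode the same protein, His3.3. *His4r*, which encodes the same protein as the cluster *His4* genes, had 954 FPKM in *mxcmbn1*, 595 FPKM in *mxcG43* and 644 FPKM in wild type. Its *mxcmbn1* level was 1.48 times wild type. *His4r* alone was 95.5 times the cluster *His4* sum in *mxcmbn1*, 61.7 times in *mxcG43* and 282 times in wild type. *cid*, which encodes the histone variant of centromeres, was low in all libraries at 3.23, 1.10 and 1.497 FPKM. The germline linker histone *CG3509* (BigH1) had 0.362 FPKM in *mxcmbn1*, 8.85 FPKM in *mxcG43* and 14.7 FPKM in wild type, the reverse of *His1*.

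**Figure D3:**
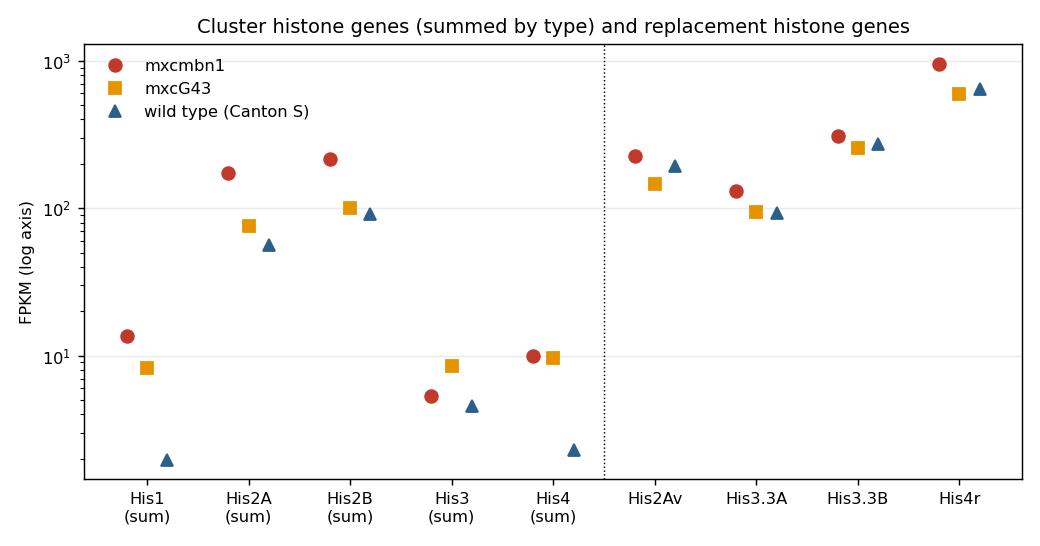
FPKM on a log axis of the 5 cluster histone types, each summed over its copies (left of the dotted line), and of 4 replacement histone genes (right), in *mxcmbn1* (circles), *mxcG43* (squares) and wild type (triangles). The cluster sums of *His1*, *His3* and *His4* stay under 14 FPKM in every library, while *His3.3A*, *His3.3B* and *His4r* lie at 93.6 FPKM or above.

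The genes that build the histone locus body and process histone mRNA differed little. Of 19 such genes, 18 were high enough to be compared, and 1 was more than 2 times higher in *mxcmbn1* than in wild type. It was *CstF-64*, a subunit of the cleavage stimulation factor, at 7.28 FPKM in *mxcmbn1* and 3.25 FPKM in wild type. Its entry has the same locus as that of *Cpsf73*, which had 8.15 and 7.17 FPKM. How reads were divided between these entries was not tested. None of the 18 was more than 2 times lower. Of all entries, 15.0% were called higher and 23.1% lower in *mxcmbn1*. In *mxcG43* none of the 18 was called, against 5.60% of all entries called higher and 5.96% called lower. The median log2 ratio of the 19 genes to wild type was 0.15 in *mxcmbn1* and -0.01 in *mxcG43*. Over all entries, those at 0 FPKM included, both medians were 0. Among entries of at least 1 FPKM in both libraries, the median ratio to wild type was 1.07 in *mxcmbn1* and 0.963 in *mxcG43*. *Slbp*, whose product binds the stem-loop of histone mRNAs, had 17.9 FPKM in *mxcmbn1*, 10.002 FPKM in *mxcG43* and 15.0 FPKM in wild type. *mute*, which encodes a component of the body, had 11.7, 7.23 and 9.71 FPKM. *Lsm11* and *Lsm10*, which encode proteins of the U7 particle that directs 3′ cleavage, had 7.33, 10.8 and 11.7 FPKM and 8.81, 6.16 and 9.13 FPKM. *CG4616* (FLASH) had 3.26, 4.50 and 4.14 FPKM. The U7 RNA itself, *snRNA:U7*, was listed at 0 in all libraries. *CycE*, whose product activates Cdk2 at the start of S phase, had 8.63 FPKM in *mxcmbn1*, 5.38 FPKM in *mxcG43* and 5.32 FPKM in wild type.

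Histone chaperones carry histones to DNA. Of 14 chaperone genes, 12 were higher by any amount in *mxcmbn1* than in wild type, against 6597 of all 15185 entries. More than 2 times higher were 2 of 14, a share near the 15.0% of all entries. The first was *Ssrp*, a subunit of the FACT complex, with 45.8 FPKM in *mxcmbn1*, 11.2 FPKM in *mxcG43* and 13.0 FPKM in wild type, or 3.51 times wild type. The second was *Caf1-180*, the large subunit of the assembly factor CAF-1, with 5.31, 3.00 and 2.25 FPKM. The median log2 ratio to wild type was 0.50 in *mxcmbn1* and -0.18 in *mxcG43*, beside 0 over all entries, those at 0 FPKM included. In *mxcG43* no chaperone gene was called, against 5.60% of all entries called higher and 5.96% called lower. The median chaperone ratio in *mxcmbn1*, 1.42 times wild type, was below the sum ratios of *His1*, *His2A*, *His2B* and *His4* but above that of *His3*.

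Of 38 DNA replication genes, 36 were higher by any amount in *mxcmbn1* than in wild type and 13 in *mxcG43*, against 6597 and 6532 of all 15185 entries. More than 2 times higher in *mxcmbn1* were 6 of 38, again a share near the 15.0% of all entries, and none was more than 2 times lower, against 23.1% of all entries. *Ts*, thymidylate synthase, stood at 4.18 times wild type, with 23.3 FPKM in *mxcmbn1* and 5.59 FPKM in wild type. *DNApol-epsilon* stood at 3.07 times, *RnrL*, the large subunit of ribonucleotide reductase, at 2.58 times and *Mcm3*, of the replicative helicase, at 2.51 times. The single-strand binding protein genes *RpA-70* and *RPA2* were at 2.12 and 2.03 times. The median log2 ratio to wild type was 0.64 in *mxcmbn1* and -0.14 in *mxcG43*. As a ratio the *mxcmbn1* median was 1.55 times wild type and 1.76 times *mxcG43*, the second above the sum ratios of *His1*, *His3* and *His4* for that pair and below those of *His2A* and *His2B*. Between *mxcG43* and wild type no replication gene was called in either direction, against 5.60% of all entries called higher and 5.96% called lower.

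Of 18 mitosis genes, 10 were higher by any amount in *mxcmbn1* than in wild type, against 6597 of all 15185 entries. More than 2 times higher were 4, against 15.0% of all entries, and 1 was more than 2 times lower, against 23.1%. *stg*, the Cdc25 phosphatase that starts mitosis, had 36.3 FPKM in *mxcmbn1*, 7.97 FPKM in *mxcG43* and 11.8 FPKM in wild type. The other higher genes were *Incenp* (2.74 times), *Klp61F* (2.57 times) and *scra* (2.24 times), and *aur*, the Aurora A kinase, was lower with 7.72 FPKM in *mxcmbn1*, 12.9 FPKM in *mxcG43* and 18.1 FPKM in wild type. In *mxcG43* 1 of 18 was called lower, *ial*, the Aurora B kinase, at 6.34 FPKM against 14.1 FPKM in wild type. Of all entries 5.96% were called lower in *mxcG43*. The median log2 ratio to wild type was 0.33 in *mxcmbn1* and -0.21 in *mxcG43*.

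**Figure D4:**
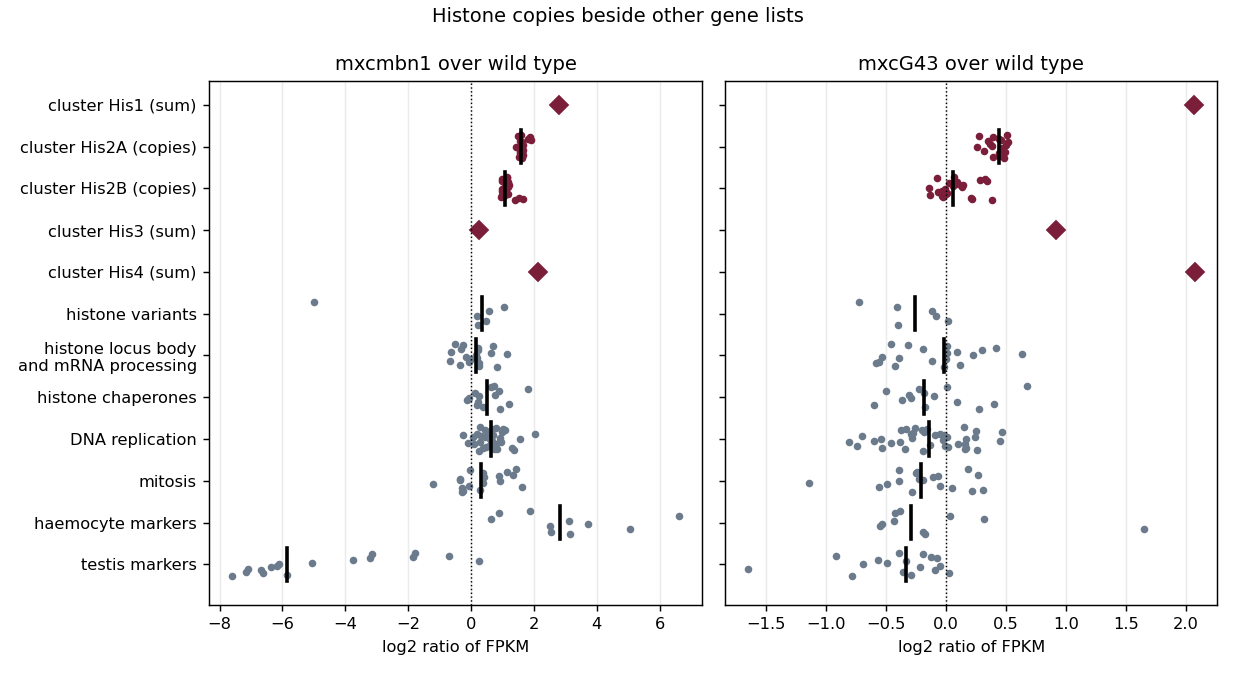
Log2 ratio to wild type in *mxcmbn1* (left) and *mxcG43* (right) for the histone types and for other gene lists, on separate horizontal scales. Diamonds are ratios of type sums, dots are single copies or genes, and black bars are medians. In *mxcmbn1* the histone types other than *His3* lie above the medians of the replication and mitosis lists and the haemocyte median is 2.83, while in *mxcG43* the medians of the 5 lists of histone-related and cell cycle genes are below 0.

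Markers of cell types also differed between *mxcmbn1* and wild type, some lists upward and others downward. All 10 haemocyte markers were higher in *mxcmbn1* than in wild type, against 6597 of all 15185 entries. More than 2 times higher were 8 of them, against 15.0% of all entries. Their median log2 ratio was 2.83, and none was at 0 in any library. *Hml*, the haemocyte gene Hemolectin, had 100 FPKM in *mxcmbn1*, 9.98 FPKM in *mxcG43* and 11.3 FPKM in wild type. In *mxcG43* the haemocyte median was -0.29, with 1 of 9 markers called higher, *nimC1*, against 5.60% of all entries. Of 17 testis markers, 15 were more than 2 times lower in *mxcmbn1* than in wild type, against 23.1% of all entries. The median log2 ratio of the testis markers was -5.86 in *mxcmbn1* and -0.33 in *mxcG43*. The summed level of 5 fat body markers was 8534 FPKM in *mxcmbn1*, 18260 FPKM in *mxcG43* and 24627 FPKM in wild type. Each of the 5 was more than 2 times lower in *mxcmbn1* than in wild type, against 23.1% of all entries. In *mxcG43* the sum hides *Fbp1*, the 1 marker that was higher than in wild type, at 4098 against 1129 FPKM. The summed level of 5 neuroblast markers was 4.68 FPKM in *mxcmbn1*, 14.3 FPKM in *mxcG43* and 11.4 FPKM in wild type. That of 6 imaginal disc markers was 51.7, 51.7 and 54.1 FPKM. The equal disc sums hide differences between markers. In *mxcmbn1* against wild type, *wg* (1.35 against 3.62 FPKM) and *Dll* (1.45 against 6.25 FPKM) were more than 2 times lower. Of the 6 disc markers 3 were higher by any amount, and none by more than 2 times. For 3 lamellocyte markers the sums were 51.7 FPKM in *mxcmbn1*, 10.5 FPKM in *mxcG43* and 21.7 FPKM in wild type, and for 8 early germline markers they were 29.98, 24.96 and 42.8 FPKM. Of the germline sum in wild type, *bam* alone held 27.7 FPKM. Of the 8 markers, 3 (*nos*, *piwi* and *zpg*) were more than 2 times higher in *mxcmbn1* than in wild type, against 15.0% of all entries. Another 3 (*vas*, *bam* and *bgcn*) were more than 2 times lower, against 23.1%. The median log2 ratio of the 8 markers was 0.52. The paper reports that some *mxcmbn1* mutants were still larvae at ages by which controls had pupated. It describes the *mxcmbn1* and wild-type larvae used for RNA-seq as of the same developmental stage. Whether these marker differences come from cell content, RNA per cell or larval age was not tested. What part any of these has in the histone sums was not tested either.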

How the data were processed

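Total RNA of whole male larvae was made into strand-specific single-end mRNA libraries and sequenced with reads of 51 bases. The FPKM values were deposited by the authors, who ran FastQC 0.11.5, a read filter, TopHat 2.0.6 on the BDGP5 genome and Cufflinks, the aligner and quantifier at default parameters. By default these tools keep at most 20 alignments of a read and divide a read equally among them, so copies are not independent and types of 20 to 23 copies may be affected unequally. Whether RNA with a poly(A) tail was selected, and the number of larvae, are not given in the sources used here.

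Groups were taken from the strain labels, 1 library each. Plain ratios of FPKM were taken between libraries, and for lists the median of log2 (FPKM + 0.1) differences. A gene was called when its ratio was above 2 or under its inverse, with an FPKM above 0 in both libraries and of at least 1 in the higher. Depth was recovered as the scale at which low single-exon genes gave whole reads. At that scale, 149 of 172 low genes in *mxcmbn1*, 47 of 80 in *mxcG43* and 39 of 66 in wild type were whole within 0.03 reads, where the tolerance alone would give 6%. Effective lengths assumed fragments of 200 ± 80 bases. The estimated reads, rounded to whole numbers, gave Clopper-Pearson 95% intervals, which cover counting error only. No ratio is given for a copy under the floor of 3 reads in both libraries or against a fraction of a read.

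The members and gene lists were chosen with earlier results of these data known. By name are given, for each type, the copies with the highest and lowest *mxcmbn1* to wild-type ratio and the highest FPKM, and genes of the lists. Other copies were named after their values were seen. Of 153 listed genes 152 were matched, all but *lat*. BDGP6 served for names, exon numbers and strand, and for the exon lengths by which single-exon genes were picked to recover depth. No sequences are shown. The steps were tested on simulated data. Computation was done in Python 3.11.15 with scipy 1.17.1, pandas 2.3.3 and numpy 2.4.6, and plots were drawn with matplotlib 3.10.9. Alternatives covered scaling, minimum FPKM, pseudocounts, thresholds and types left out.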

Additional observations from a re-analysis of the deposited data

How the results depend on the processing

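No paired analysis was possible because there was 1 library per genotype. The histone total in *mxcmbn1* over wild type ran from 2.42 to 3.09 over all alternatives, which were 3 rescalings, the median over copies and each type left out. Rescaling divided the ratios by 0.918 to 1.07 for that pair, by 0.922 to 0.963 for *mxcG43* over wild type and by 0.992 to 1.10 for *mxcmbn1* over *mxcG43*. With the median over copies in place of the sum, the total was 2.45 times wild type in *mxcG43*, and 1.24 for *mxcmbn1* over *mxcG43*. The counts of copies depended on the low types. Copies higher in *mxcmbn1* than in wild type were 84 with no minimum FPKM, 78 with a pseudocount of 0.1, 23 with a pseudocount of 1, 15 at a threshold of 3 times and 1 at 10 times. In *mxcG43* they were 53 with no minimum and 43 with a pseudocount of 0.1. Copies higher in *mxcmbn1* than in *mxcG43* were 14 with a pseudocount of 1, 21 after rescaling by the median ratio and 0 at 3 or 10 times, and with no minimum 2 were lower. The *His4* ratio of *mxcmbn1* over *mxcG43* turned to 0.946 and 0.927 under rescaling by the median ratio and the median over copies. A minimum FPKM of 1 turned the lamellocyte median of *mxcG43* over wild type to -1.19, since it left 1 marker, and a pseudocount of 1 turned the imaginal disc median of *mxcmbn1* over wild type to 0.0023. The cause of the other changes was not tested. Depth limits *His1*, *His3* and *His4*, whose wild-type sums rest on 15, 14 and 8 estimated reads.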

Other observations

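Entries named as histone pseudogenes lie in and beside the cluster and were outside the rule for the 111 copies. *His-Psi:CR33867*, in unit 23 at 21539129 to 21541127 of 2L and 1999 bases wide, had 2.05 FPKM in *mxcmbn1*, 3.19 FPKM in *mxcG43* and 0.151 FPKM in wild type, from an estimated 56.2, 62.5 and 3.06 reads. It stood at 13.5 times wild type in *mxcmbn1* (95% counting interval 4.40 to 67.5) and 21.1 times in *mxcG43* (6.90 to 105), and its *mxcmbn1* level was 0.641 times that of *mxcG43* (0.439 to 0.934). Like *His1* and *His4* it was higher in both mutants, but it was highest in *mxcG43*.

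The pseudogene entries of units 1, 3 and 5 were highest in *mxcmbn1*. *His-Psi:CR33802* had 7.74 FPKM in *mxcmbn1*, 2.72 FPKM in *mxcG43* and 2.88 FPKM in wild type, *His-Psi:CR33805* had 4.96, 2.26 and 1.34 FPKM, and *His-Psi:CR33811* had 7.38, 2.36 and 1.84 FPKM. Their *mxcmbn1* levels were 2.69, 3.72 and 4.01 times wild type, with lower interval bounds of 1.13, 1.40 and 1.38. These units lack a *His2A* entry. How reads were shared between these entries and the *His2A* copies was not tested.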
